A study of Rattus norvegicus with 24 samples.

Results

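The collagen genes were taken as every gene of the deposited table whose name has the form Col, a type number, the letter a and a chain number, which gave 43 of the 21067 genes. The table came from poly(A) RNA-seq of quadriceps femoris, the large muscle at the front of the thigh, in 24 Sprague-Dawley rats, a common outbred laboratory rat, and holds 1 library per rat and 6 rats in each of 4 groups. All rats were 6 weeks old at the start and the study describes equal numbers of males and females in each group. It asked whether catgut embedding, an acupuncture technique in which short pieces of absorbable collagen thread are left under the skin and in muscle at chosen points, alters the muscle response to strenuous running.

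The control group had no treadmill training beyond a short habituation. The treadmill group ran an incremental programme for 7 weeks that ended in a run to exhaustion. Catgut group 1 received thread at Qian Shen, Yang Wa, Han Gou and Xie Qi, points of the hind limb from which the muscle was taken, and at Bai Hui and Qiang Feng, recovered for 1 week and then followed the same running programme. Catgut group 2 received thread at the same points and at Fei Shu. There was no group that had thread without running and no group with a sham insertion, so thread and insertion cannot be told apart, and the effect of thread was measured only in exercised rats.

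Collagens are the main structural proteins of the extracellular matrix and are built from 3 polypeptide chains wound into a triple helix, so that most types need more than 1 gene product. In skeletal muscle, fibroblasts make the fibrillar types I, III and V of the connective tissue sheaths, type IV forms the basement membrane network around each fibre and capillary, and type VI forms beaded filaments between them. Tendon and the junction of muscle with tendon are especially rich in type I and also hold minor fibrillar chains such as type XI, and a muscle sample can include them.

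Several collagen chains that share a helix are encoded by genes lying head to head, and promoter windows, 250 bases before to 50 bases after the start of the transcript, are shown for such a pair and for 2 contrasting fibrillar genes. The sequences are those of RefSeq on the rat assembly GRCr8, read 5′ to 3′ on each gene's own strand. Col4a1 (chr16:84885347-84885646, plus strand) and Col4a2 (chr16:84885471-84885770, minus strand) encode the chains of the main type IV helix, their starts lie 77 bases apart, and the capitals mark the 176 bases that both windows share. The second window therefore repeats these bases as their reverse complement.
Col4a1: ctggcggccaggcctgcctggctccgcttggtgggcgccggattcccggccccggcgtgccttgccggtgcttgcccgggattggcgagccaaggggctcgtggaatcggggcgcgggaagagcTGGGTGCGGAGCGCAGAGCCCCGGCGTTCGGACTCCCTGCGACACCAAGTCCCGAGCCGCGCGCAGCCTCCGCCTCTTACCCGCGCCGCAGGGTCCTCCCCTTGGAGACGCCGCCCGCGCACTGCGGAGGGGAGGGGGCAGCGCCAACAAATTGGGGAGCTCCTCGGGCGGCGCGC
Col4a2: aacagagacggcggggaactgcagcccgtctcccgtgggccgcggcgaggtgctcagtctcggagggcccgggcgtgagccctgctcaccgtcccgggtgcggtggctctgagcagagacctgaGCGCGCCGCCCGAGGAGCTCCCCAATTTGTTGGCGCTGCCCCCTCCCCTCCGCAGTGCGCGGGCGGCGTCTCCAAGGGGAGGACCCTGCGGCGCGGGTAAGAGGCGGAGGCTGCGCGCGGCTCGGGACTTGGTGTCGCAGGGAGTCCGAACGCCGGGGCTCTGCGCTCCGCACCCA

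Col1a2 (chr4:33518307-33518606, plus strand), one of the most abundant members, and Col5a3 (chr8:27625899-27626198, minus strand), the member that differed most clearly between groups below, are shown for their different promoter content. Capitals mark the letters TATAAA (as in the TATA box), ATTGG (as in the CCAAT box) and GGGCGG (as in the GC box). They were searched on both strands and at any distance from the start, so a match need not be a working box. None of these motifs overlaps another in the windows shown.
Col1a2: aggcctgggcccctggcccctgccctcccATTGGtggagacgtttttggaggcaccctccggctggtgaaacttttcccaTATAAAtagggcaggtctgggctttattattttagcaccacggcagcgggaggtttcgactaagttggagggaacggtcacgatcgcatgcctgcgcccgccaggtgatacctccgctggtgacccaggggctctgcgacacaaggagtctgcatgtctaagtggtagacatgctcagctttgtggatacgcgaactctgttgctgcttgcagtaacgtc
Col5a3: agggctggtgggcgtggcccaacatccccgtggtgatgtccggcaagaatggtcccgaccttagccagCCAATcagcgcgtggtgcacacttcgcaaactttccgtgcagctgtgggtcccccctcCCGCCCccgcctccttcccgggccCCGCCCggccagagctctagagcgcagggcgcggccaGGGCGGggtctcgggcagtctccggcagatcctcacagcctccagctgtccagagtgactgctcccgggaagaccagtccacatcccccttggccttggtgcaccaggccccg

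The Col1a2 window held 1 TATAAA, 1 ATTGG and 0 GGGCGG matches, and the Col5a3 window held 0, 1 and 3. A window was matched by symbol for 34 of the 43 genes, and no window was used for Col1a1, Col2a1, Col3a1, Col6a2, Col9a3, Col12a1, Col14a1, Col22a1 and Col25a1. TATAAA was present in 4 of the 34 windows (11.8%) and in 14.2% of all 33469 promoter windows of the same length. ATTGG was present in 11 (32.4%) against 37.5%, and GGGCGG in 19 (55.9%) against 33.1%. The other head-to-head pairs were Col4a3 and Col4a4 on chromosome 9, with starts 413 bases apart and 88 shared bases, and Col4a5 and Col4a6 on chromosome X, with starts 1415 bases apart and 0 shared bases. These matches describe letters in the windows and were not tested.

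The libraries held 45945938 to 78278080 deposited counts in all, with a median of 75150847 in the control group, 60688147 in the treadmill group, 56332834.5 in catgut group 1 and 62100481 in catgut group 2. The commonest counts above 0 were 4 and 8, so the detection limit of 3 fragments was taken as 12 counts, and such limits cover counting error only. The muscle identity was clear in every library, since the skeletal muscle fibre markers in the table summed to between 61824.8 and 85515.1 FPKM (fragments scaled to transcript length and library size). Liver transcripts stood out in 3 libraries, where Alb, the gene for serum albumin, was 135 FPKM (control replicate 2), 14.3 FPKM (treadmill replicate 2) and 226 FPKM (treadmill replicate 3), against at most 3.14 FPKM in the others. The 8 tendon and myotendinous junction markers summed to 221 FPKM in control replicate 4 and 192 FPKM in catgut group 2 replicate 2, the highest of their groups. The Y-linked transcript Eif2s3y was over 5 FPKM in 11 libraries, 3 each in the control group, the treadmill group and catgut group 1 and 2 in catgut group 2, and at most 0.0266 FPKM in the other 13. For some of the results that touch the liver or tendon marker libraries, values without them are also given below.

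Of the 43 collagen genes, 31 had a mean of at least 0.1 FPKM over the 24 libraries and were tested. The other 12 were Col2a1, Col4a6, Col6a4, Col6a5, Col9a1, Col9a2, Col9a3, Col10a1, Col17a1, Col19a1, Col25a1 and Col26a1, which include the chains of cartilage types II, IX and X. Of these, Col6a4, Col10a1, Col19a1 and Col25a1 were at or under the detection limit in all 24 libraries. By mean FPKM, 7 members lay between 10 and 100, 12 between 1 and 10, 12 between 0.1 and 1 and 12 under 0.1. Col6a3 and Col21a1 were not analysed here.

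A few chains carried most of the collagen transcript level. The 3 highest members made up 58.3% of the summed collagen FPKM and the 8 highest 88.2%. The 11 fibrillar genes held 63.5%, the 5 type VI genes 15.3%, the 6 type IV genes 13.8%, the 2 multiplexins Col15a1 and Col18a1 3.13%, the 9 FACIT genes (collagens that attach to fibrils) 2.89%, the 6 other collagens 1.25% and the 4 transmembrane collagens 0.119%. Because FPKM corrects for transcript length, these levels can be set side by side between genes.

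**Figure D1:**
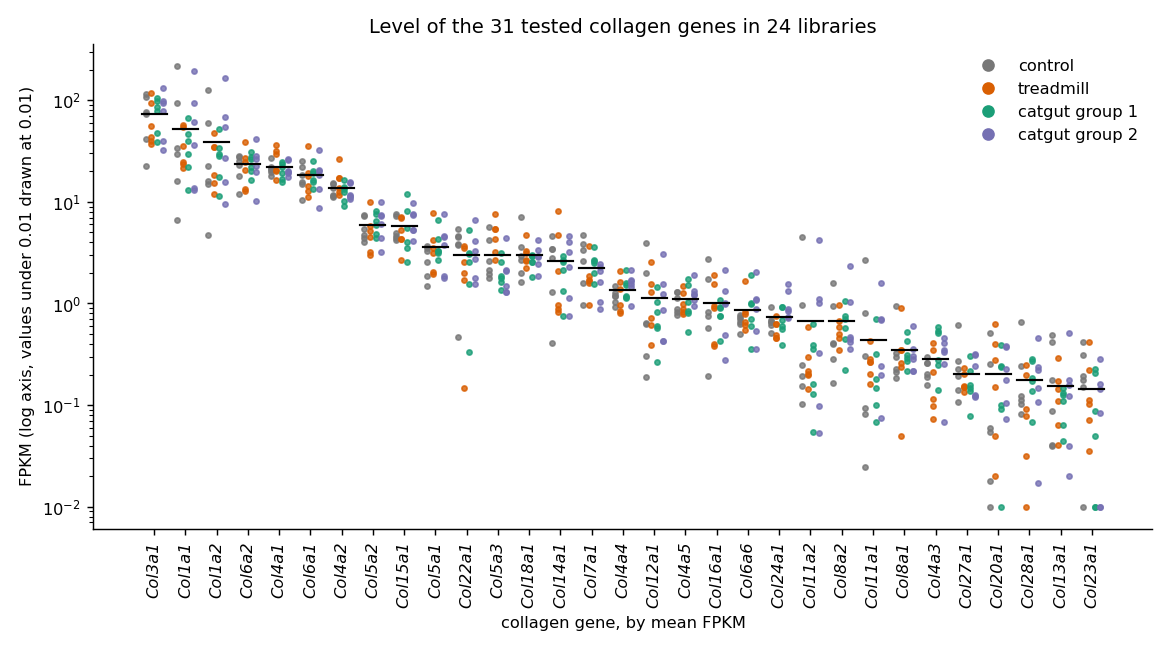
FPKM (log axis) of the 31 tested collagen genes in each of the 24 libraries, with points coloured by group, values under 0.01 drawn at 0.01, and a black line at the mean over all libraries. Mean levels run from 73.2 FPKM for Col3a1 to 0.144 FPKM for Col23a1, and the points of the 4 groups overlap at every gene.

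Col3a1, which encodes the single chain of type III collagen in the thin fibrils of endomysium and vessel walls, had the highest mean (73.2 FPKM, range 22.6 to 133). Its lowest, median and highest values were 22.6, 75.0 and 115 FPKM in the control group, 36.8, 49.6 and 118 FPKM among treadmill rats, 39.2, 82.6 and 106 FPKM in catgut group 1 and 32.3, 85.6 and 133 FPKM in catgut group 2. The groups overlapped over most of their ranges. The table lists the gene on chromosome 9 from 52023295 to 52059217 on the plus strand (ENSRNOG00000003357), on a genome build that is not given in the sources used here, as for all table coordinates that follow.

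Type I collagen, the main protein of tendon and thick fibrils, is made from Col1a1 and Col1a2. Col1a1 (chromosome 10, 82745801 to 82762789, plus strand, ENSRNOG00000003897) had lowest, median and highest values of 6.62, 31.6 and 217 FPKM in the control group, 21.4, 30.1 and 56.9 FPKM among treadmill rats, 13.2, 34.6 and 66.6 FPKM in catgut group 1 and 13.2, 49.2 and 193 FPKM in catgut group 2. Col1a2 (chromosome 4, 31534225 to 31569151, plus strand, ENSRNOG00000011292) had 4.75, 19.2 and 127 FPKM, 11.9, 26.4 and 47.3 FPKM, 11.4, 28.7 and 52.6 FPKM, and 9.63, 40.8 and 166 FPKM in the same order of groups. Both genes were highest in the same libraries, control replicate 4 and catgut group 2 replicate 2, and lowest in control replicate 2. The ranges of the groups therefore overlapped.

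Type VI and type IV chains varied less. The mean over the 24 libraries was 23.5 FPKM for Col6a2 (range 10.3 to 41.8) and 18.4 FPKM for Col6a1 (8.62 to 35.4), whose chains join in the same filament. It was 22.3 FPKM for Col4a1 (15.7 to 36.2) and 13.7 FPKM for Col4a2 (9.09 to 26.2). Treadmill replicates 2, 3 and 4 lay above every library of the other groups for both type IV genes, while the other treadmill libraries overlapped them.

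Among the other fibrillar chains, Col5a2, a chain of the type V collagen that helps to nucleate type I fibrils, averaged 5.87 FPKM (range 3.01 to 10.1). Its partner chains Col5a1 and Col5a3 averaged 3.61 and 3.01 FPKM. Col24a1 averaged 0.734 FPKM, Col11a2 0.680 FPKM, Col11a1 0.441 FPKM and Col27a1 0.203 FPKM. Col22a1, a FACIT collagen of the myotendinous junction, averaged 3.02 FPKM and ranged from 0.149 to 6.71 FPKM, and Col7a1, the anchoring fibril collagen, averaged 2.25 FPKM. Col4a3 and Col4a4, chains of the specialised type IV helix known from kidney and lung, averaged 0.282 and 1.37 FPKM.

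Summed over all 43 genes, collagen transcripts came to a lowest, median and highest value of 117, 238 and 612 FPKM in the control group, 150, 223 and 408 FPKM among treadmill rats, 149, 262 and 329 FPKM in catgut group 1 and 126, 301 and 680 FPKM in catgut group 2. The ranges of the 4 groups overlapped, and no test was made of the sum. The sum was 0.0180 to 0.104% of all FPKM in a library. In bulk samples fewer cells of a type and less RNA per cell cannot be told apart, and this applies to every level given here.

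**Figure D2:**
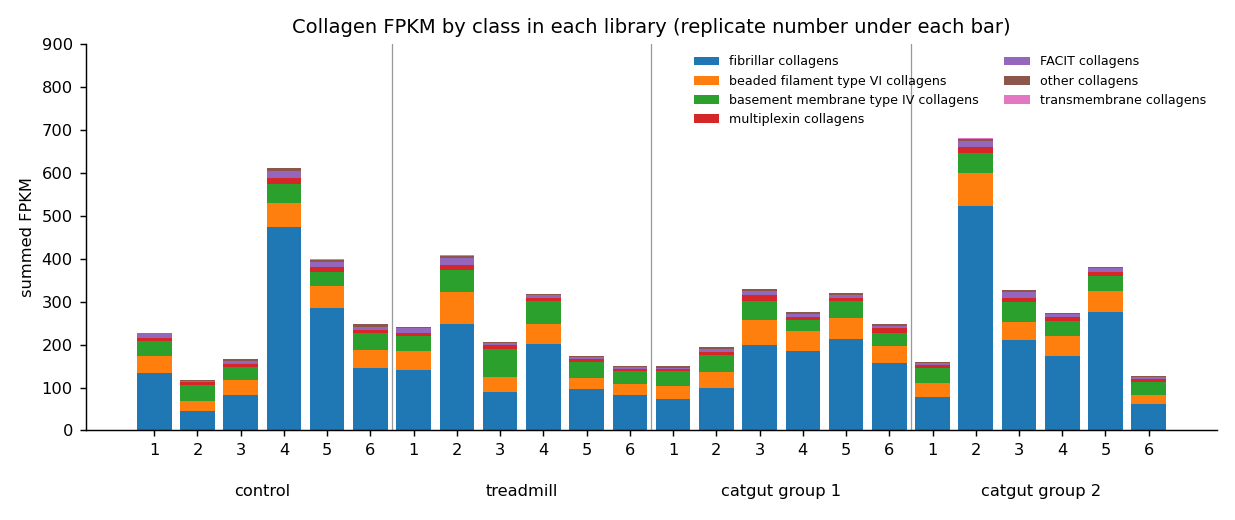
Summed collagen FPKM in each of the 24 libraries, stacked by collagen class and ordered by group and replicate. The tallest bars are catgut group 2 replicate 2 (680 FPKM) and control replicate 4 (612 FPKM), and their height is mostly fibrillar collagen, while the type IV segment stays between 26.7 and 64.7 FPKM in every library.

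On the scale of log2(FPKM + 1), collagen genes differed more between rats of the same group than most genes. This scale compresses low values, and the genes were not matched for level. The standard deviation of log2(FPKM + 1) within groups had a median of 0.42 over the 31 collagen genes and of 0.21 over all 14772 genes tested, and 24 of the 31 lay above that second value. Col1a1 was among the most variable of all genes, with a within-group standard deviation of 1.25 on this log2 scale, higher than in 99.2% of genes, and its highest library was 32.9-fold above its lowest. For Col1a2 the same ratio was 35.01-fold. Of the 31 genes, 9 were highest in control replicate 4 and 8 in catgut group 2 replicate 2, the libraries with the highest tendon marker sums. Another 9 were lowest in control replicate 2, one of the libraries with liver transcripts.

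The proportions of partner chains were examined for 1 pair each of types I, IV and VI, and those of type V are given with Col5a3 below. The Col1a1 to Col1a2 ratio of FPKM ranged from 0.875 to 1.98 with a median of 1.35, Col4a1 to Col4a2 from 1.38 to 1.82 with a median of 1.66, and Col6a1 to Col6a2 from 0.621 to 0.936 with a median of 0.792. The ratio of Col3a1 to Col1a1, which belong to different helices, ranged from 0.496 to 3.41.

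Correlations across the 24 libraries were computed on log2(FPKM + 1) after each group's mean was subtracted, with permutation p-values from 100000 resamples within groups, two-sided and adjusted by Benjamini-Hochberg over the 12 pairs examined, of which 3 were added after values were seen. All pairs of points share library, depth and cell composition. Col1a1 and Col1a2 had Pearson's r = 0.976 and Spearman's rho = 0.969 (permutation p = 1e-05 for each, the smallest the resamples can give, adjusted p = 1.5e-05 and 2.4e-05). Without the 2 libraries farthest from the median of Col1a1, control replicate 4 and catgut group 2 replicate 2, r was 0.960. Col6a1 and Col6a2 gave r = 0.958 and rho = 0.954 (adjusted permutation p = 1.5e-05 and 2.4e-05, r = 0.937 without 2 libraries).

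The 3 pairs of neighbouring type IV genes were examined in the same way. Distances between their starts are those of GRCr8. The table lists the 5′ ends of all 3 pairs farther apart, at 83522162 and 83438561 for Col4a1 and Col4a2. The closely spaced pair Col4a1 and Col4a2, whose shared promoter bases are printed above, had r = 0.924 and rho = 0.915 (adjusted permutation p = 1.5e-05 and 3.43e-05, r = 0.915 without 2 libraries). Col4a3 and Col4a4, with starts farther apart, had r = 0.730 and rho = 0.722 (adjusted permutation p = 0.000933 and 0.00171, r = 0.718 without 2 libraries). For Col4a5 and Col4a6 r was 0.136 and rho 0.0602 (adjusted permutation p = 0.535 and 0.780, r = 0.333 without 2 libraries), but Col4a6 was above the detection limit in only 3 of the 24 libraries, so this pair could not be assessed at this depth. The correlations of the 3 pairs were not tested against each other.

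Of fibrillar genes of different types, 2 pairs were examined. Col1a1 and Col3a1 had r = 0.885 and rho = 0.903 (adjusted permutation p = 1.5e-05 and 2.4e-05, r = 0.908 without 2 libraries), and Col3a1 and Col5a2 r = 0.865 and rho = 0.870 (the same adjusted p-values, r = 0.872 without 2 libraries). Col1a1 and Serpinh1, the collagen chaperone of the endoplasmic reticulum, had r = 0.778 and rho = 0.785 (adjusted permutation p = 1.5e-05 and 7.5e-05), and r = 0.671 without the same 2 libraries as above.

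Of the 8 tendon and myotendinous junction markers, Tnmd and Kera were set beside collagen genes, and the others were not. Col22a1 and Tnmd, the gene of the tendon membrane protein tenomodulin, had r = 0.533 and rho = 0.508 (adjusted permutation p = 0.0132 and 0.0185, r = 0.523 without 2 libraries). The pairs added after values were seen gave r = 0.875 and rho = 0.857 for Col1a1 and Tnmd (adjusted permutation p = 1.5e-05 and 3.43e-05, r = 0.845 without 2 libraries), r = 0.873 and rho = 0.887 for Col11a2 and Kera, the keratan sulphate proteoglycan keratocan (adjusted permutation p = 1.5e-05 and 2.4e-05, r = 0.834 without 2 libraries), and r = 0.667 and rho = 0.608 for Col4a1 and Cdh5, the endothelial cadherin (adjusted permutation p = 0.00264 and 0.00710, r = 0.533 without 2 libraries). The part of tendon or of vessel content in these collagen levels was not tested.

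**Figure D3:**
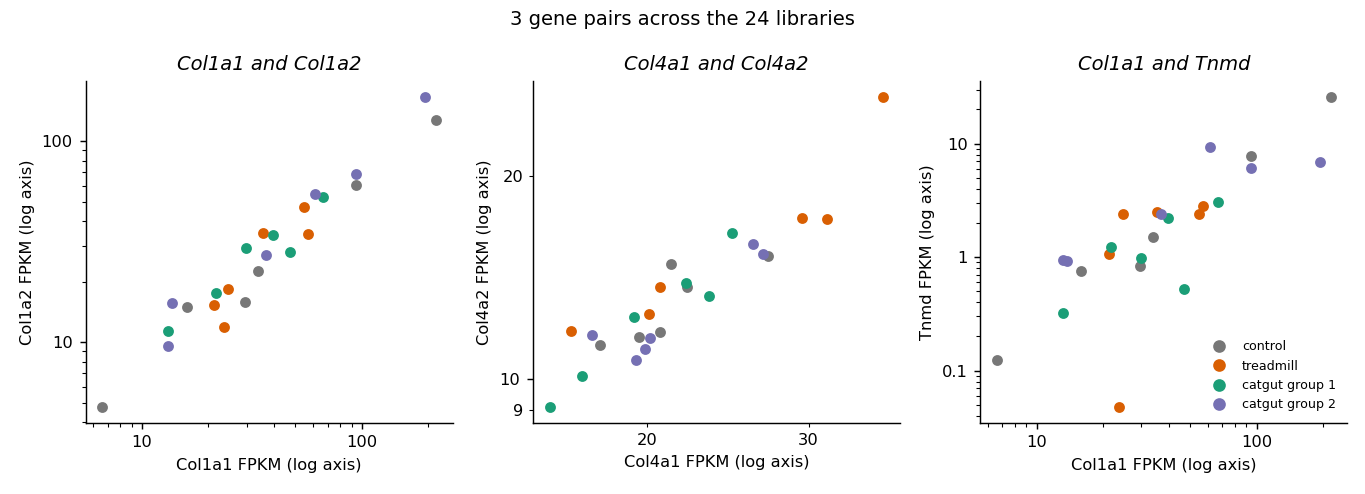
FPKM on log axes in 24 libraries, coloured by group, for Col1a1 against Col1a2, Col4a1 against Col4a2 and Col1a1 against Tnmd. Points fall along a line in each panel (within-group r of 0.976, 0.924 and 0.875), and the groups are mostly mixed along it. In the panel of Col4a1 and Col4a2, treadmill replicates 2, 3 and 4 form the upper end.

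The comparisons used edgeR's quasi-likelihood test on the deposited counts of the 2 groups concerned, with p-values adjusted by Benjamini-Hochberg over all 14772 genes tested. The study's own criterion was applied as well, namely that the mean FPKM of the groups differs by a ratio above 1.5 or below 0.667 and that p is below 0.05 before adjustment. No collagen gene had an adjusted p under 0.05 by edgeR in any of the 6 comparisons, where the share over all genes was 0.0542% for treadmill against control, 0.0474% for catgut group 1 against treadmill, 0.237% for catgut group 2 against treadmill, 0.00677% for catgut group 2 against catgut group 1, 0.0203% for catgut group 1 against control and 0.508% for catgut group 2 against control. No collagen gene was separated without overlap of the groups either, and the share of all genes so separated was, in the same order, 0.447%, 0.413%, 1.04%, 0.162%, 0.393% and 1.09%. The comparisons share libraries, since each group enters 3 of them.

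The running programme as a whole was addressed by the treadmill group against the control group. The treadmill gave an electric stimulus to rats that tried to leave the running area. Training, the final run to exhaustion and this stimulus cannot be told apart. None of the 31 collagen genes met the criterion, where 2.85% of all genes did, and 0 had an unadjusted p under 0.05 by edgeR (all genes, 9.12%), 3 by DESeq2 (all genes, 10.1%) and 0 by limma (all genes, 7.48%), with 0 adjusted calls by each tool (all genes, 0.846% by DESeq2 and 0.0406% by limma). The fitted difference was above 0 for 11 of 31, with a median log2 fold change of -0.08, and for 7343 of all 14772 genes. The smallest p-values belonged to Col11a2, lower by the fit (log2 fold change -1.74, SE 0.84, edgeR adjusted p = 0.554), and Col4a2, higher by the fit (0.37, SE 0.18, edgeR adjusted p = 0.555). Over fits that left out 1 library the Col4a2 value ranged from 0.17 to 0.44. Its edgeR adjusted p was highest (0.796) without treadmill replicate 3. That library holds liver transcripts and had the highest Col4a2 value (26.2 FPKM). The Col11a2 value rested on control replicate 4, and without it the log2 fold change was -0.25. Among the abundant genes the log2 fold change was -0.78 for Col1a1 and -0.52 for Col1a2, neither past the test. Both values rested on the same library, since without control replicate 4 they were -0.01 (edgeR adjusted p = 0.998) and 0.16 (edgeR adjusted p = 0.954).

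Addition of thread was addressed by each catgut group against the treadmill group, which enters both comparisons. In catgut group 1, 1 of the 31 collagen genes met the criterion, Col5a3, against 3.12% of all genes in either direction and 1.99% in the lower direction. An unadjusted p under 0.05 was reached by 3 members by edgeR (all genes, 6.93%), 3 by DESeq2 (all genes, 7.24%) and 1 by limma (all genes, 5.27%). An adjusted p under 0.05 was reached by 0, by 1 (Col5a3; all genes, 1.05%) and by 0 (all genes, 0.0203%). The fit was above 0 for 16 of 31, with a median log2 fold change of 0.00, and for 7065 of all 14772 genes.

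Col5a3, a chain of type V collagen found in fewer tissues than the others, lies on chromosome 8 from 21786324 to 21831668 on the minus strand (ENSRNOG00000020525). Its lowest, median and highest values were 1.79, 2.39 and 5.61 FPKM in the control group, 2.69, 4.88 and 7.66 FPKM among treadmill rats, 1.35, 1.81 and 3.15 FPKM in catgut group 1 and 1.29, 1.80 and 4.38 FPKM in catgut group 2. The treadmill libraries were mostly high and the catgut libraries mostly low, with 5 of 6 libraries of each catgut group under every treadmill library and 1 in each overlapping.

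Mean Col5a3 was 4.80 ± 1.80 FPKM for the treadmill rats and 2.05 ± 0.675 FPKM for catgut group 1 (SD, n = 6 rats each), a ratio of 0.428. The edgeR log2 fold change was -1.24 (SE 0.21, p = 5.84e-05, adjusted p = 0.0747), and the exact two-sided permutation test of log2(FPKM + 1) over 924 arrangements gave p = 0.00433, where the smallest possible is 0.00216. Catgut group 2 had a mean of 2.12 ± 1.17 FPKM (SD, n = 6), a ratio of 0.441 to the treadmill group, with a log2 fold change of -1.21 (SE 0.28, edgeR p = 0.000741, adjusted p = 0.104) and an exact permutation p of 0.0130. The difference met the criterion in both catgut groups but did not pass the adjustment over all genes by edgeR. Against the control group Col5a3 was not past the test in any of the 3 others, with edgeR log2 fold changes of 0.63 for the treadmill group (adjusted p = 0.558), -0.61 for catgut group 1 (adjusted p = 0.541) and -0.59 for catgut group 2 (adjusted p = 0.436).

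Liver transcripts moved with this result. All 5 liver markers were lower by the criterion in both catgut groups than in the treadmill group, with sums of 0.518 to 281 FPKM for treadmill rats, 0.0456 to 0.616 FPKM for catgut group 1 and 0.131 to 0.725 FPKM for catgut group 2. The treadmill sums had a median of 4.06 FPKM. Leaving out treadmill replicates 2 and 3 therefore did not remove all of the difference in liver markers. Without these replicates, the libraries of these comparisons where Alb stood out, Col5a3 still met the criterion. Its log2 fold change was -1.02 in catgut group 1 (edgeR adjusted p = 0.270) and -1.005 in catgut group 2 (edgeR adjusted p = 0.212). Treadmill replicate 2 was also the library highest in Col5a3 (7.66 FPKM). Without catgut group 2 replicate 2, the library of that group highest in tendon markers, the value in catgut group 2 was -1.52 (edgeR adjusted p = 0.0156).

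Levels of Col5a3 were also split by the Y-linked transcript. Among libraries with Eif2s3y under 5 FPKM, Col5a3 was 2.64 to 5.61 FPKM in the control group, 5.43 to 7.66 FPKM among treadmill rats, 1.85 to 3.15 FPKM in catgut group 1 and 1.303 to 4.38 FPKM in catgut group 2. Among libraries over 5 FPKM it was 1.79 to 2.13, 2.69 to 4.33, 1.35 to 1.77 and 1.29 to 1.498 FPKM in the same order. Within each subset every treadmill library was above every library of both catgut groups, and this split was not tested. The subsets held only 2 to 4 libraries per group, and Col5a3 was picked by these data. The share of all genes so separated within the subsets is not given here. With the Y-linked level as a covariate the edgeR log2 fold change was -1.21 in catgut group 1 (adjusted p = 0.00464) and -1.32 in catgut group 2 (adjusted p = 0.0322), while over all settings and tools tried and libraries left out the adjusted p ranged from 7.06e-06 to 0.305 and from 0.00113 to 0.244.

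The other type V chains were not past the test in the same comparisons. For Col5a1 the edgeR log2 fold change against the treadmill group was 0.06 in catgut group 1 (adjusted p = 0.996) and 0.08 in catgut group 2 (adjusted p = 0.971), and for Col5a2 it was 0.24 (adjusted p = 0.938) and 0.26 (adjusted p = 0.800). The ratio of Col5a3 to Col5a1, chosen after values were seen and not tested, ran from 0.982 to 1.74 for treadmill rats, from 0.312 to 0.780 for catgut group 1 and from 0.324 to 0.732 for catgut group 2. In the control group it ranged from 0.487 to 2.84 and overlapped all others. For treadmill rats the ratio of Col5a3 to Col5a2 was 0.748 to 1.201, for catgut group 1 it was 0.210 to 0.532 and for catgut group 2 it was 0.250 to 0.435. Neither ratio overlapped between the treadmill group and the catgut groups, but both were chosen after values were seen. The share of other gene ratios without overlap is not given here.

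**Figure D4:**
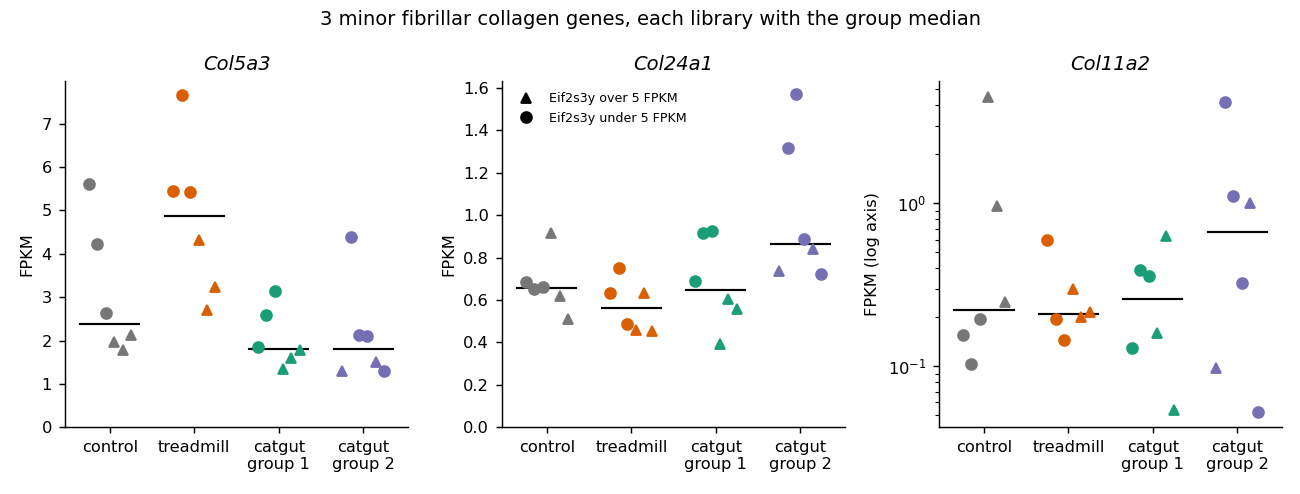
FPKM of Col5a3 and Col24a1 (linear axes) and Col11a2 (log axis) in each library by group, with triangles for libraries with Eif2s3y over 5 FPKM, circles for the others and a line at the group median. Col5a3 has its highest median in the treadmill group (4.88 FPKM), Col24a1 in catgut group 2 (0.863 FPKM), and Col11a2 reaches 4.51 and 4.20 FPKM in single libraries of the control group and catgut group 2.

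In the type IV basement membrane, Col4a2 had an unadjusted p under 0.05 in both catgut groups against the treadmill group, with edgeR log2 fold changes of -0.44 (adjusted p = 0.643) in catgut group 1 and -0.42 (adjusted p = 0.433) in catgut group 2. So did Col4a1 in catgut group 1, at -0.37 (edgeR adjusted p = 0.721). The ratios of mean FPKM were 0.760 and 0.769 for Col4a2 and 0.792 for Col4a1, inside the bounds of the criterion, so neither gene met it. The lowest, median and highest values of Col4a2 were 11.2, 12.7 and 15.3 FPKM in the control group, 11.8, 15.5 and 26.2 FPKM among treadmill rats, 9.09, 12.8 and 16.5 FPKM in catgut group 1 and 10.7, 11.6 and 15.8 FPKM in catgut group 2. The treadmill group differed by a few high libraries and overlapped the others at its lower end.

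In catgut group 2 against the treadmill group, 3 of 31 members met the criterion, 2 of them higher (Col24a1 and Col11a2) and 1 lower (Col5a3), against 3.76% of all genes, 1.96% higher and 1.79% lower. By edgeR 4 members had an unadjusted p under 0.05 (all genes, 10.7%), by DESeq2 5 (all genes, 11.3%) and by limma 2 (all genes, 9.6%). An adjusted p under 0.05 was reached by 0, by 2 (Col24a1 and Col5a3, where 2.38% of all genes did by DESeq2) and by 0 (0.142% of all genes by limma). Of the 31 genes, 22 were fitted above 0, with a median log2 fold change of 0.21, and for all genes 7479 of 14772 were above 0. By class, 9 of 10 fibrillar genes were fitted above 0 with a median of 0.53, although their p-values were mostly above 0.05. Many collagen genes vary together across libraries, so these counts are not of separate observations. The tendon and myotendinous junction markers were above 0 for 7 of 8, with a median of 1.16, and Thbs4 met the criterion. All 5 Schwann cell markers were above 0 with a median of 0.54, and the part of either list in the collagen values was not tested.

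Col24a1, a minor fibrillar collagen (chromosome 2, 251200686 to 251434932, plus strand, ENSRNOG00000014143), had lowest, median and highest values of 0.511, 0.655 and 0.914 FPKM in the control group, 0.456, 0.560 and 0.749 FPKM among treadmill rats, 0.394, 0.649 and 0.926 FPKM in catgut group 1 and 0.722, 0.863 and 1.57 FPKM in catgut group 2. In catgut group 2, 4 of 6 libraries lay above every treadmill library, and the lowest overlapped them. The mean was 1.01 ± 0.350 FPKM against 0.569 ± 0.120 FPKM in the treadmill group (SD, n = 6 each), a ratio of 1.78, with an edgeR log2 fold change of 0.79 (SE 0.18, p = 0.000913, adjusted p = 0.117) and an exact permutation p of 0.00649. Without catgut group 2 replicate 2 the log2 fold change was 0.72 (edgeR adjusted p = 0.196).

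Col11a2, a type XI chain (chromosome 20, 3830164 to 3859018, plus strand, ENSRNOG00000000463), had lowest, median and highest values of 0.103, 0.221 and 4.51 FPKM in the control group, 0.145, 0.209 and 0.593 FPKM among treadmill rats, 0.0543, 0.259 and 0.633 FPKM in catgut group 1 and 0.0527, 0.664 and 4.20 FPKM in catgut group 2. It was high in single libraries, and 3 of 6 libraries of catgut group 2 were above every treadmill library while 2 were below every one. The log2 fold change in catgut group 2 against the treadmill group was 1.92 (SE 0.82, edgeR p = 0.0363, adjusted p = 0.423, ratio 4.11), and the exact permutation p was 0.173. Without catgut group 2 replicate 2 it was 0.84 (edgeR adjusted p = 0.744), and without the libraries with liver transcripts 1.63 (edgeR adjusted p = 0.570), and in neither case did it meet the criterion. Kera was 27.5 FPKM in catgut group 2 replicate 2, where Col11a2 was highest, and 47.0 FPKM in control replicate 4. Of the 5 cartilage markers, a tissue known for type XI collagen, Acan, Matn1, Matn3 and Snorc were too low to be tested.

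The point Fei Shu was addressed by catgut group 2 against catgut group 1. Only Col11a2 met the criterion, 1 of 31, against 1.25% of all genes and 0.9% in the higher direction (log2 fold change 1.92, SE 0.87, edgeR adjusted p = 1, ratio 3.93). The exact permutation p was 0.216, and without catgut group 2 replicate 2 the value was 0.84 (edgeR adjusted p = 1). Col24a1 was higher by the fit (0.55, SE 0.21, ratio 1.48) and Col7a1 lower (-0.57, SE 0.25, ratio 0.694), both with an unadjusted p under 0.05, an edgeR adjusted p = 1 and a ratio short of the bounds. An unadjusted p under 0.05 was thus found for 3 members by edgeR (all genes, 3.26%), 3 by DESeq2 (all genes, 3.74%) and 0 by limma (all genes, 3.05%), with 0 adjusted calls by each (all genes, 0.0543% by DESeq2 and 0.0135% by limma).

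In that comparison 28 of 31 collagen genes were fitted above 0, with a median log2 fold change of 0.16, while 7628 of all 14772 genes were above 0. Many collagen genes vary together across libraries, so the 28 are not separate observations. The count without catgut group 2 replicate 2, where 8 of the 31 genes were highest, is not given here. All 8 tendon and myotendinous junction markers were also fitted above 0, with log2 fold changes of 0.0023 to 2.24 and a median of 1.47, and 3 met the criterion, namely Kera (log2 fold change 2.24), Tnmd (1.64) and Thbs4, each with an edgeR adjusted p = 1. Their sum ranged from 12.6 to 58.0 FPKM in catgut group 1 and from 14.3 to 192 FPKM in catgut group 2. The 5 adipocyte, 5 Schwann cell and 3 endothelial markers tested were likewise all above 0, with medians of 0.53, 0.47 and 0.15, and 0 of these met the criterion. The part of these cell types in the collagen values was not tested.

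**Figure D5:**
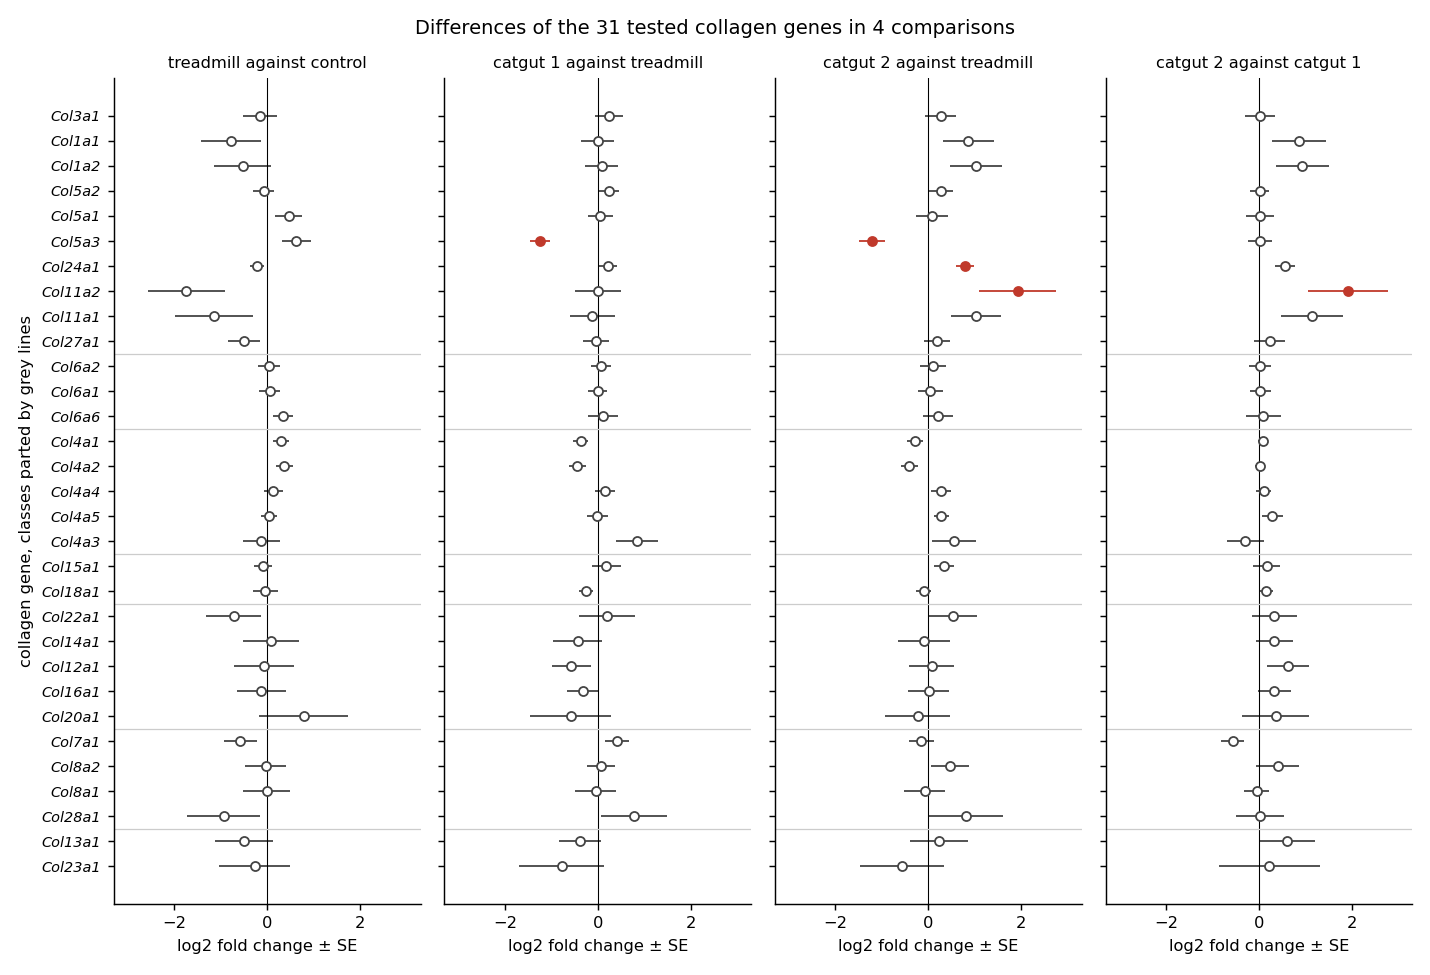
Log2 fold change with its standard error (edgeR) of the 31 tested collagen genes, ordered by class, in 4 comparisons, with filled red points for genes that meet the study's criterion. No point is red for treadmill against control, Col5a3 is red and left of 0 in both catgut groups against the treadmill group, and most points for catgut group 2 against catgut group 1 lie right of 0.

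The catgut groups were also set beside the control group, from which they differ in both thread and running. In catgut group 1, 1 of 31 genes met the criterion, against 4.62% of all genes and 2.32% in the higher direction, and this was Col4a3 (mean 0.383 ± 0.184 against 0.227 ± 0.0521 FPKM, SD, n = 6 each, ratio 1.69, log2 fold change 0.72, SE 0.32, edgeR p = 0.0442, adjusted p = 0.490, exact permutation p = 0.104). The Col4a3 values ran from 0.159 to 0.298 FPKM in the control group and from 0.139 to 0.587 FPKM in catgut group 1, with 3 of 6 libraries of catgut group 1 above all control libraries. The call was lost in 8 of the 12 fits that left out 1 library. An unadjusted p under 0.05 was found for 1 member by edgeR (all genes, 9.84%), 3 by DESeq2 (all genes, 10.4%) and 0 by limma (all genes, 7.89%), with 0 adjusted calls by each (all genes, 1.15% by DESeq2 and 0.0542% by limma).

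In catgut group 2, 1 of 31 genes met the criterion against the control group, Col24a1 (log2 fold change 0.58, SE 0.18, edgeR p = 0.00764, adjusted p = 0.160, ratio 1.502, exact permutation p = 0.0260), against 5.96% of all genes and 3.52% in the higher direction. Its ratio lay just past the bound of 1.5, and it was under the bound in 6 of the 12 fits that left out 1 library. An unadjusted p under 0.05 was found for 2 members by edgeR (all genes, 16.4%), 3 by DESeq2 (all genes, 17.5%) and 1 by limma (all genes, 14.6%). An adjusted one was found for 0, for 1 (Col24a1, where 5.24% of all genes had one by DESeq2) and for 0 (0.474% of all genes by limma).

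The genes that fold, process, degrade and sense collagen were then examined through lists of 90 genes, of which 82 were in the table and 70 were tested. In treadmill against control 2 were higher and 0 lower by the criterion, in catgut group 1 against treadmill 2 and 1, in catgut group 2 against treadmill 3 and 1, in catgut group 2 against catgut group 1 0 and 0, in catgut group 1 against control 3 and 1, and in catgut group 2 against control 6 and 0. The share of all genes that met it, in either direction and in the same order, was 2.85%, 3.12%, 3.76%, 1.25%, 4.62% and 5.96%. The median log2 fold change of the 70 lay between -0.04 and 0.18 in the 6 comparisons.

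Of the folding and hydroxylation enzymes, P3h2, a prolyl 3-hydroxylase known to act on type IV collagen, averaged 0.504 FPKM in the control group, 0.539 in the treadmill group, 0.803 in catgut group 1 and 1.22 in catgut group 2. All 6 libraries of catgut group 2 were above every treadmill library (log2 fold change 1.15, SE 0.26, edgeR adjusted p = 0.109), where 1.04% of all genes had no overlap. P3h2 also met the criterion in catgut group 2 against the control group (log2 fold change 1.34). P4ha2, a subunit of the prolyl 4-hydroxylase that stabilises the triple helix, was the only one of these 70 genes with an adjusted p under 0.05 by edgeR, at 6.87 ± 0.561 FPKM among controls and 9.23 ± 1.07 FPKM among rats of catgut group 2 (SD, n = 6 each, log2 fold change 0.42, adjusted p = 0.0456, ratio 1.34), with all 6 libraries above the control libraries. Over the other settings and tools its adjusted p ranged from 0.000376 to 0.145. In that comparison 1.09% of all genes had no overlap. Colgalt2, which adds galactose to hydroxylysine, was higher in the same comparison by the criterion (log2 fold change 0.95, edgeR adjusted p = 0.0658).

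Serpinh1 was 28.7 to 63.5 FPKM in the control group, 31.03 to 63.5 FPKM among treadmill rats, 39.1 to 106 FPKM in catgut group 1 and 39.1 to 92.8 FPKM in catgut group 2. P4ha1 (7.88 to 24.01 FPKM over all libraries), the lysyl hydroxylase Plod2 (0.922 to 3.15 FPKM) and the cross-linking lysyl oxidase Lox (0.198 to 4.82 FPKM) also overlapped between groups, and none of these 4 genes met the criterion in any comparison. All 15 folding and hydroxylation genes were fitted above 0 in catgut group 2 against the treadmill group, with a median log2 fold change of 0.24, beside 7479 of 14772 for all genes, and 1 of the 15 met the criterion. Catgut group 1 against the treadmill group was similar, with 14 of 15 above 0 and a median of 0.14, beside 7065 of 14772. The number above 0 was 9 in treadmill against control and 12 in catgut group 2 against catgut group 1. Against control it was 11 in catgut group 1 and 13 in catgut group 2.

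Among the enzymes of breakdown and their inhibitors, Timp3, a metalloproteinase inhibitor bound to the matrix, averaged 25.6 FPKM in the control group, 25.0 in the treadmill group, 41.8 in catgut group 1 and 45.1 in catgut group 2. It met the criterion against the treadmill group in both catgut groups (log2 fold change 0.73, edgeR adjusted p = 0.519, and 0.85, edgeR adjusted p = 0.146). Mmp14, a membrane-bound collagenase, averaged 3.93, 5.25, 2.55 and 2.94 FPKM in the same order and was lower by the criterion than in the treadmill group (-1.05, edgeR adjusted p = 0.424, and -0.85, edgeR adjusted p = 0.437), a call that in catgut group 2 held in 3 of the 12 fits that left out 1 library. Mmp2 (5.94 to 35.5 FPKM) and Timp1 (1.77 to 9.04 FPKM) did not meet the criterion in any comparison. No adjusted p of these genes was under 0.05 by edgeR.

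The collagen receptor gene Itga1, the integrin subunit that binds type IV and type I collagen, averaged 0.222 FPKM in the control group, 0.281 in the treadmill group, 0.479 in catgut group 1 and 0.543 in catgut group 2. It met the criterion in both catgut groups against the treadmill group (log2 fold change 0.74, edgeR adjusted p = 0.562, and 0.93, edgeR adjusted p = 0.235) and against the control group (1.13, edgeR adjusted p = 0.302, and 1.32, edgeR adjusted p = 0.0790). Thbs1, which encodes the matrix protein thrombospondin that activates TGF-beta, averaged 1.24 FPKM in the control group and met the criterion in each of the 3 other groups against it (1.61, 1.80 and 1.28 in the treadmill group, catgut group 1 and catgut group 2). Sparc, an abundant collagen-binding protein, was 125 to 679 FPKM and did not meet the criterion.

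Of the growth factors and regulators, Pdgfb was higher in the treadmill group than in the control group (20.5 ± 7.23 against 12.8 ± 2.25 FPKM, SD, n = 6 each, log2 fold change 0.71, edgeR adjusted p = 0.354). Smad7, an inhibitor of TGF-beta signalling, was higher than in the control group in catgut group 1 (log2 fold change 0.64, edgeR adjusted p = 0.401) and catgut group 2 (0.61, edgeR adjusted p = 0.142). Postn, a matrix protein of remodelling connective tissue, was lower in catgut group 1 (1.37 ± 0.577 FPKM) than in the control group, where it varied widely (4.54 ± 5.43 FPKM, SD, n = 6 each, log2 fold change -1.71, edgeR adjusted p = 0.405). Without control replicate 5, where it was highest, the value was -0.78 (edgeR adjusted p = 0.602) and did not meet the criterion. These genes had adjusted p-values above 0.05 by edgeR.

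Markers of other cell types that the sample can hold were tested as well. Of the 7 fibroblast markers and of the 5 macrophage markers 0 met the criterion in any of the 6 comparisons, and the 3 endothelial markers tested gave 1 call, Kdr, higher in the treadmill group than in the control group (log2 fold change 0.66, edgeR adjusted p = 0.354). Of the 5 smooth muscle and pericyte markers, Acta2 was higher by the criterion than in the control group in the treadmill group (0.80), catgut group 1 (0.90) and catgut group 2 (0.76), Pdgfrb was lower in catgut group 1 than in the control group (-0.60) and Rgs5 was higher in catgut group 2 than in the control group (0.58, edgeR adjusted p = 0.0417). The Schwann cell markers Pmp22 (0.75) and Mbp (1.67) were higher by the criterion in catgut group 2 than in the control group. Of the adipocyte markers, Lep was lower in the treadmill group (-2.85) and Adipoq in catgut group 1 (-2.42), each against the control group. Of the 5 adipocyte markers, 1 was fitted above 0 in the first of these comparisons and 0 in the second. Among the marker calls of this paragraph, only Rgs5 had an adjusted p under 0.05 by edgeR. The part of these cell types in the collagen values was not tested. Of the 11 genes of procollagen processing and cross-linking, Lox among them, 0 met it.

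Collagen genes make up a large part of the KEGG pathway protein digestion and absorption, 32 of the 87 pathway genes in the table and 23 of the 60 tested, in which collagens are listed as dietary protein. Over treadmill against control and both catgut groups against treadmill, 9 of the 60 met the criterion at least once, beside 7.38% of all 14772 genes. Of these, 3 were collagens (Col5a3, Col11a2 and Col24a1) and 6 were Atp1b4, Cpa3, Ctrl, Dpp4, Kcnq1 and Slc7a8. By comparison, 1 pathway gene met it in treadmill against control (0 collagens), 6 in catgut group 1 against treadmill (1 collagen) and 4 in catgut group 2 against treadmill (3 collagens).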

How the data were processed

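Quadriceps RNA of 24 rats was sequenced as poly(A) paired-end Illumina libraries. The authors deposited 1 table with a whole-number count and an FPKM per gene and library. The submitters' processing notes list HISAT2 2.0 and StringTie 1.3.0, and the genome build and how the counts were made are not given in the sources used here. The deposited counts had 4 and 8 as their commonest values above 0, so counts are not independent fragments, and a shared multiple does not move fold changes. Library depth ranged from 45945938 to 78278080 counts. No replicates were pooled by the authors, and p-values measure the spread between rats.

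From these values, genes with a mean of at least 0.1 FPKM over the 24 libraries (14772 of 21067) were tested with edgeR 4.0.16 (quasi-likelihood test, TMM, R 4.3.3) in each of 6 comparisons, with only the 2 groups concerned in the fit and Benjamini-Hochberg adjustment over all genes tested. The study's criterion was a difference in mean FPKM by a ratio above 1.5 or below 0.667, together with p below 0.05 before adjustment. Standard errors were the size of the log2 fold change over the square root of edgeR's F. Exact two-sided permutation tests and correlations used log2(FPKM + 1) in Python 3.11.15 (numpy 2.4.6, pandas 2.3.3, scipy 1.17.1, matplotlib 3.10.9). Alternatives were DESeq2 1.42.0, limma 3.58.1, other filters and scalings, 1 fit over 4 groups, a replicate block, a Y-linked covariate and libraries left out. Genes to which DESeq2 gave no p or adjusted p were left out of its shares. The fitting script was tested on simulated data.

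The members, the gene lists and the tests were chosen with earlier results of these data known. Named collagen genes were those that met the criterion or had an adjusted p under 0.05 in any comparison, the 8 of highest mean FPKM, the gene of smallest p in each direction in each comparison, and the pairs examined. Named pathway genes were those that met the same rule, plus Serpinh1, P4ha1, Plod2, Lox, Mmp2, Mmp14, Timp1 and Sparc. Other genes were named after their values were seen. A correlation planned for Col4a1 and Pecam1 was replaced by Col4a1 and Cdh5, since Pecam1 was not analysed here. Promoter windows came from RefSeq on GRCr8, and no coordinates were moved between builds.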

Additional observations from a re-analysis of the deposited data

Results flagged for a closer look

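In 52 sets of 6 libraries, 13 collagen genes in each of 4 groups, 7 had an extreme library set apart from the rest. Its gap to its nearest neighbour exceeded 0.625 of the range of the group. That limit is passed in about 1 in 20 sets of independent, normally distributed values. Here FPKM were used without a log scale, the genes vary together and some were chosen by these data. The count of 7 was therefore not tested against chance. In catgut group 2 replicate 2 stood above its group for 3 genes, with Col1a2 at 166 FPKM, Col11a2 at 4.20 FPKM and Col5a3 at 4.38 FPKM, and this library had the highest tendon marker sum of its group (192 FPKM). Col11a2 also stood apart in control replicate 4 (4.51 FPKM), the library with the highest tendon marker sum of all (221 FPKM), and in treadmill replicate 1 (0.593 FPKM). Treadmill replicate 2 stood above its group for Col6a1 (35.4 FPKM) and Col7a1 (3.67 FPKM), and this library held liver transcripts (Alb 14.3 FPKM). The part of tendon or liver content in these values was not tested.

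The effect of catgut group 2 on Col11a2 differed from that of catgut group 1 by 1.92 on the log2 scale when both were tested against each other (edgeR adjusted p = 1, unadjusted under 0.05). The difference was 0.84 (edgeR adjusted p = 1) without catgut group 2 replicate 2.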

How the results depend on the processing

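The number of collagen genes that met the criterion was small, and a single gene moved it. Treadmill against control, with 0 in the report, gave 2 by DESeq2 and 1 by limma with a pseudocount of 0.1, by 1 fit over the 4 groups, with the Y-linked covariate and without the libraries with liver transcripts. Catgut group 2 against treadmill (3) gave 1 with a filter of 1 FPKM, 4 by DESeq2, and 2 by limma with either pseudocount, with the Y-linked covariate and without the libraries highest in tendon markers. Catgut group 2 against catgut group 1 (1) gave 2 with no filter and 0 with a filter of 1 FPKM, by limma with either pseudocount and with the Y-linked covariate. Catgut group 1 against control (1) gave 3 with no filter and 0 with a filter of 1 FPKM, by limma with either pseudocount, by 1 fit over the 4 groups and with the Y-linked covariate. Catgut group 2 against control (1) gave 3 with no filter, 0 with a filter of 1 FPKM, and 2 by DESeq2, by 1 fit over the 4 groups and without the libraries highest in tendon markers. Over fits that left out 1 library, the counts were 0 to 3, 1 to 2, 2 to 5, 0 to 3, 0 to 3 and 0 to 4 in the order treadmill against control, catgut group 1 and catgut group 2 against treadmill, catgut group 2 against catgut group 1, and catgut group 1 and catgut group 2 against control. The libraries whose omission moved these counts were control replicates 1 (3), 2 (2), 3 and 6 (1 each) and treadmill replicates 1, 2 and 5 (1 each) for treadmill against control, treadmill replicates 2 and 4 and catgut group 1 replicate 2 (2 each) for catgut group 1 against treadmill, and treadmill replicates 2 to 6 and catgut group 2 replicate 2 (2 each) and catgut group 2 replicates 1 (4) and 6 (5) for catgut group 2 against treadmill. For catgut group 2 against catgut group 1 they were catgut group 1 replicates 1, 4 and 6 (0 each) and 2, 3 and 5 (2 each) and catgut group 2 replicates 1, 4 and 6 (3 each). Against control they were control replicates 3 (0) and 5 (2) and catgut group 1 replicates 1 (3) and 6 (0), and for catgut group 2 control replicates 1 (2), 3, 5 and 6 (0 each) and catgut group 2 replicates 1 (3) and 6 (4). The settings that left out liver or tendon libraries were chosen after seeing the data.

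With the replicate number as a block the count was 1 for treadmill against control, 2 for catgut group 2 against treadmill and 0 for catgut group 1 against control. The numbers did not pair the rats, since same-numbered libraries correlated over 0.1 in 0 to 3 of 6 pairs per comparison and a library of the first group correlated best with its own number in 0 to 3 of 6.

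Col5a3 met the criterion against the treadmill group in both catgut groups under every setting tried and in all 12 leave-outs of each. Col11a2 in catgut group 2 lost it against the treadmill group in 6 of 12 leave-outs (treadmill replicates 2, 3, 4, 5 and 6 and catgut group 2 replicate 2) and against catgut group 1 in 8 of 12 (catgut group 1 replicates 1, 2, 3, 4 and 6 and catgut group 2 replicates 2, 3 and 5). Col4a3 in catgut group 1 against control lost it in 8 of 12 (control replicates 1 to 5 and catgut group 1 replicates 3, 5 and 6), and Col24a1 in catgut group 2 against control in 6 of 12 (control replicates 2, 3, 5 and 6 and catgut group 2 replicates 2 and 3). Of 794 recomputed values of single genes, 681 kept their direction and their side of the criterion, 82 lost it, 31 gained it and 0 changed sign, and 0 of 36 recomputed correlations changed sign. For members under 1 FPKM the depth limits what can be shown.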
